A study of Mus musculus with 50 samples.

Results

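The genes described here are 6 imprinted genes of mouse chromosome 7 from 2 domains: Peg3, Usp29 and Zim1 of the Peg3 domain, and Snrpn, Ndn and Magel2 of the Snrpn domain. They were chosen by name, and their rows were read from both deposited expression tables, where they are 6 of 24412 genes in the first table and 6 of 24411 in the second. The study measured polyadenylated RNA in TT2 mouse embryonic stem (ES) cells that lack different combinations of the enzymes that methylate lysine 9 of histone H3 (H3K9), and its title places this in the setting of minor zygotic genome activation. The enzymes are G9a, encoded by Ehmt2 and best known for H3K9 dimethylation, and Setdb1 and the pair Suv39h1 and Suv39h2 (written Suv39h1/2), best known for H3K9 trimethylation. The first table has 18 libraries in 9 groups of 2: control cells, Setdb1-KO, Suv39h1/2-DKO, Suv39h1/2;Setdb1-TKO, G9a-KO, G9a;Setdb1-DKO, G9a;Suv39h1/2-TKO, G9a;Suv39h1/2;Setdb1-QKO (called QKO here) and a Dux-KO:G9a;Suv39h1/2;Setdb1-QKO, which also lacks Dux, a transcription factor of the early embryo. The second table has 32 libraries in 16 groups of 2. These are Tet-on-Dux lines of the same 8 genotypes, from control to QKO, each without doxycycline and with it, at a label of 0.2 for control and Setdb1-KO and of 1 for the other 6 genotypes, with no unit given. The genotype label of every group in the second table also names a Dux-KO, so that deletion is shared by its controls. The titles of all groups that lack Setdb1 carry the tag OHT and those of the others the tag NT. The tag and the loss of Setdb1 therefore cannot be told apart. Within each table, another tag in the titles, which may name the cell line, is shared only by genotypes that differ in Setdb1 alone. Loss of G9a, Suv39h1/2 or Dux therefore cannot be told apart from a change of that tag. The word line below stands for a genotype of the second table, where control and Setdb1-KO share that tag. Nothing in the labels says whether the 2 replicates of a group are separate clones or cultures, so p-values measure the spread between these libraries, which may be technical.

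Imprinted genes are expressed mainly from the allele of a single parent. They are controlled by regions where DNA methylation laid down in a germ line marks the copy from a single parent. Peg3, Usp29, Snrpn, Ndn and Magel2 are known as paternally expressed genes, and Zim1 as a maternally expressed one. Each domain has a control region that is methylated on the maternal copy, at the shared start of Peg3 and Usp29 and at the main start of Snrpn. In ES cells these methylation imprints are held by the zinc-finger protein ZFP57 with TRIM28, which recruits Setdb1, and G9a is known for a part in imprinted silencing in the placenta. The expression values do not separate the parental alleles, so none of the values says which allele was transcribed.

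Peg3 encodes a large zinc-finger protein and lies at chr7:6703892-6730431 on the minus strand (GRCm38, the build of the submitters' mm10). Usp29, a ubiquitin-specific protease gene, runs the other way at chr7:6730578-6967219 on the plus strand. Zim1, a zinc-finger gene, lies at chr7:6671269-6696450 on the minus strand. Snrpn, which encodes a small nuclear ribonucleoprotein component, covers chr7:59982495-60140219 on the minus strand. Ndn (necdin) at chr7:62346569-62350262 and Magel2 at chr7:62377010-62381640, both on the plus strand and both of the MAGE protein family, lie over 2 Mb from the main Snrpn start. All positions are gene spans of the GENCODE annotation.

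**Figure D1:**
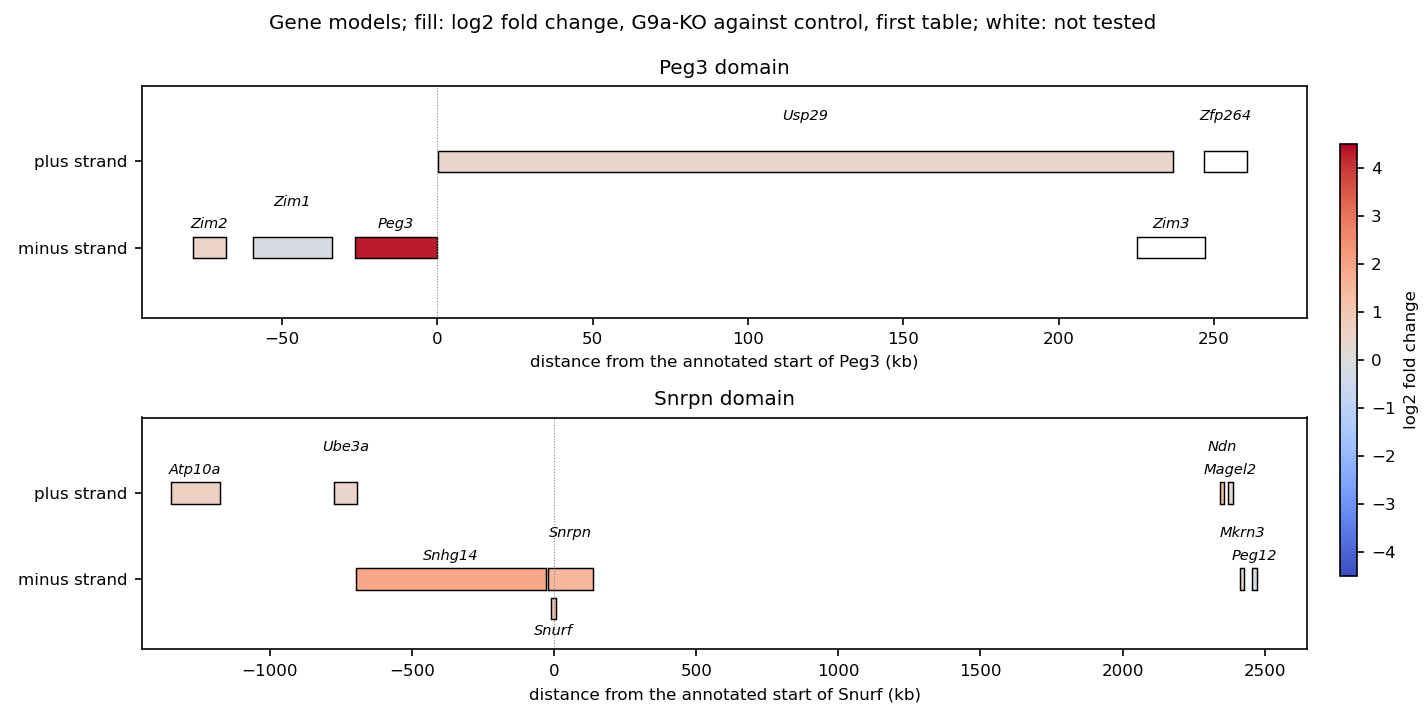
Gene models of the Peg3 domain (upper panel) and the Snrpn domain (lower panel) by strand, with distance in kb from the annotated start of Peg3 or Snurf on the x axis and fill giving the log2 change of TPM + 1 in G9a-KO against control in the first table (white: not tested; very short genes are drawn wider than they are). Peg3 has the deepest fill, at 4.31, while Usp29, which starts beside it, is at 0.42.

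The start regions are shown because the data bear on 2 shared starts: Peg3 and Usp29 begin within the same stretch on opposite strands, and Snrpn and Snurf begin at the same base. All 6 genes have a window of 300 bases in the RefSeq table (GRCm38.p6), which runs from 250 bases before to 50 bases after the annotated start. The Peg3 window, chr7:6730370-6730669 on the minus strand, and the Usp29 window, chr7:6730333-6730632 on the plus strand, share 263 bases, and their start sites are 164 bases apart. Snrpn has 4 windows, and the one at chr7:60005150-60005449 on the minus strand is also that of Snurf, an open reading frame on the same transcript. Another, at chr7:60450128-60450427, is also that of Snhg14, the long host transcript of the small nucleolar RNAs that runs towards Ube3a. The windows of Ndn (chr7:62348027-62348326, plus strand) and Magel2 (chr7:62376729-62377028, plus strand) are given as those of the remaining genes whose levels rose in several genotypes. Capitals mark a match to TGCCGC, the binding motif of ZFP57, on either strand.
Peg3: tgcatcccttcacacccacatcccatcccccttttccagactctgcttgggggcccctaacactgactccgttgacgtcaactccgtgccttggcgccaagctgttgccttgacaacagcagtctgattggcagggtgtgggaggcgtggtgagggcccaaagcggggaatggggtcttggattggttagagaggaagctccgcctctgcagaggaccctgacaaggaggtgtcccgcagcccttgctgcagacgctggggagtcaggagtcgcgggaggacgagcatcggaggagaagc
Snrpn and Snurf: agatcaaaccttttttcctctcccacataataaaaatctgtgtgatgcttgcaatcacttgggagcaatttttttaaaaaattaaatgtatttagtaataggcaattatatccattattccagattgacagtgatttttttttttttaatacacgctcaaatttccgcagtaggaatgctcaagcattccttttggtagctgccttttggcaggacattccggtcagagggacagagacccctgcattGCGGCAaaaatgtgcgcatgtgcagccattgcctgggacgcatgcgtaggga
Ndn: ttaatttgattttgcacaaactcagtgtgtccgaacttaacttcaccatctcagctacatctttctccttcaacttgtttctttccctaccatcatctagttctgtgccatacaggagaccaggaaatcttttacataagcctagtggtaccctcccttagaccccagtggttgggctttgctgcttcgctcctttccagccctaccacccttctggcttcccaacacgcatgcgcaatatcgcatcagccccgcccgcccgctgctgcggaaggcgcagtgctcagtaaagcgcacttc
Magel2: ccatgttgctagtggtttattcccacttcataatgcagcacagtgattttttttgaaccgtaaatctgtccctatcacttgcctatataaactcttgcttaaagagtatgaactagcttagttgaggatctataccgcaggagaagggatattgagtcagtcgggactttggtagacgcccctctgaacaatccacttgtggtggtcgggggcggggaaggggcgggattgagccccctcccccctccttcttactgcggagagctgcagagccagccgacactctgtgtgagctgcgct
The only ZFP57 match in these 4 windows was GCGGCA in the Snrpn and Snurf window, on the other strand, which begins 2 bases before the start site and runs across it. Among the windows not shown, that of Zim1 held another, and TGCCGC was found on either strand in 11.6% of all 32817 windows of this length. No window of a member held GCCATNTT, the motif searched for YY1, on either strand; 6.04% of all windows did. The Peg3 window had 61.3% G and C with 13 CpG dinucleotides and the Snrpn and Snurf window 40.3% with 7, against a median of 52.7% and 7 over all windows. A match describes letters in the window and not a bound site.

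Values are in TPM, a transcript abundance scaled by transcript length and by library, which holds no read depth. Comparisons were made on log2(TPM + 1), and their log2 fold changes (log2 changes below) with SE and p come from limma. They were fitted over all tested genes, 13862 in the first table and 13817 in the second. A gene was called higher or lower where the Benjamini-Hochberg adjusted p was under 0.05 and the log2 change was at least 1 in size. On this scale the change of a gene under about 1 TPM is understated. Peg3, Snrpn and Ndn were at 1 TPM or more in all 18 libraries of the first table. Usp29 and Zim1 were so in 4 libraries and Magel2 in 5, and these 3 genes were tested only because they reached 1 TPM in the groups where they are high. In the second table Usp29 and Magel2 reached it in 5 of 32 libraries, Snrpn in 30, and Zim1 in none (highest 0.877 TPM), so Zim1 was not tested there.

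The targeted genes followed the labels in part. Ehmt2 was at 7.38 to 30.2 TPM in the 10 libraries of the first table that lack G9a and at 82.5 to 103.8 in the others, and Dux was listed at 0 in both Dux-KO:QKO libraries. Setdb1 was lower where lost but not absent (19.8 to 36.5 TPM against 41.4 to 53.2), and the ranges of lost and intact libraries overlapped for Suv39h1 (11.1 to 22.9 against 21.3 to 34.0) and Suv39h2 (12.1 to 17.1 against 14.4 to 27.2). In the second table the ranges of Suv39h2 alone overlapped, and Ehmt2 was at 1.95 to 6.58 TPM where lost. From 11855 to 13274 genes were at 1 TPM or more per library in the first table and from 11740 to 12688 in the second. All 8 ES cell markers, Pou5f1 and Sox2 among them, were at 1 TPM or more in every library. Their sums were 6033 to 14498 TPM without G9a and 7742 to 11837 with it in the first table. In the second table they ran lower without G9a, at 7407 to 10926 against 10303 to 13721 TPM. Summed primitive endoderm markers (9 to 10 of 10 at 1 TPM or more) ranged from 476 to 1739 TPM in libraries without G9a and from 347 to 676 in those with it, and their part in the results was not tested. In the second table these sums were 278 to 1552 and 409 to 728 TPM. The other marker lists also overlapped between libraries without and with G9a in the first table: 5.87 to 20.4 against 5.98 to 11.6 TPM for fibroblasts (2 to 4 of 10 markers at 1 TPM or more in each), 43.7 to 154 against 34.1 to 73.2 for trophoblast and 61.9 to 104 against 61.3 to 163 for neural cells. In the second table, 6 libraries stand apart by high levels of small nucleolar RNA host genes (mean log2(TPM + 1) over Snhg genes other than Snhg14 of 4.18 to 4.81, against 2.50 to 3.34 in the other 26), and results that change without them are given both ways.

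Peg3 was called higher in every genotype of the first table that lacks G9a, and no other genotype passed the size threshold. It was at 4.5 and 4.84 TPM in the control libraries and at 97.8 and 126 TPM in G9a-KO (log2 change 4.31, SE 0.194, adjusted p = 4.61e-10). G9a;Setdb1-DKO held 89.9 and 138 TPM (log2 change 4.31, SE 0.194, adjusted p = 1.4e-10). G9a;Suv39h1/2-TKO had 56.6 and 64.4 TPM and QKO 55.8 and 52.3 TPM, with log2 changes of 3.44 and 3.28 (adjusted p = 8.84e-09 and 3.6e-09). Every library without G9a was thus at 46 TPM or more, and every library with it at 9.72 TPM or less. In bulk RNA, fewer cells that express a gene and less of its RNA per cell cannot be told apart. Setdb1-KO had 6.69 and 9.72 TPM, which passed the p threshold but not that on size (log2 change 0.68, SE 0.194, adjusted p = 0.0149), and Suv39h1/2-DKO, with 3.91 and 4.68 TPM, overlapped the control libraries (log2 change -0.10, SE 0.194, adjusted p = 0.947). Suv39h1/2;Setdb1-TKO had 7.46 and 6.57 TPM, above both control libraries but not called (log2 change 0.50, SE 0.194, adjusted p = 0.0639).

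Usp29 starts 164 bases from Peg3 but had another order of levels, with its maximum where all 3 enzyme activities were lost. Control libraries were at 0.101 and 0.105 TPM and QKO libraries at 1.69 and 1.9 TPM. On log2(TPM + 1), only QKO among the 7 genotypes was called higher (log2 change 1.34, SE 0.123, adjusted p = 4.49e-07). Setdb1-KO was at 0.591 and 0.699 TPM (log2 change 0.58, SE 0.123, adjusted p = 0.00248) and G9a-KO at 0.383 and 0.564 TPM (log2 change 0.42, SE 0.123, adjusted p = 0.0161), both clear of the control libraries and under the size threshold. Suv39h1/2-DKO, at 0.149 and 0.0826 TPM, overlapped them. Suv39h1/2;Setdb1-TKO (0.619 and 0.577 TPM), G9a;Setdb1-DKO (0.715 and 0.996) and G9a;Suv39h1/2-TKO (0.489 and 0.393) lay clear of them, also without a call. With a pseudocount of 0.1 TPM in place of 1, the log2 changes were 1.88 (SE 0.28, adjusted p = 0.000171) in Setdb1-KO, 1.48 (SE 0.28, adjusted p = 0.000816) in G9a-KO and 3.22 (SE 0.28, adjusted p = 3.41e-07) in QKO, all called higher. The other 3 were then called higher too, at 1.78, 2.22 and 1.41 in the order above (SE 0.28, adjusted p = 0.000237, 1.54e-05 and 0.00161). Usp29 thus stayed under 1 TPM in G9a-KO, where both Peg3 libraries were above 97 TPM. Zim3 lies antisense to Usp29 and shares 2582 exonic bases with it, and it stayed under 1 TPM in all 18 libraries.

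Zim1, the maternally expressed gene of the domain, differed from both. It was at 0.468 and 0.573 TPM in control, 0.323 and 0.376 in G9a-KO and 0.179 and 0.457 in Setdb1-KO, with no call in either. QKO held 1.14 and 1.38 TPM, clear of control but under the size threshold (log2 change 0.57, SE 0.137, adjusted p = 0.00276). Its highest values were 2.21 and 2.79 TPM in Dux-KO:QKO, where it was called higher than control (log2 change 1.2, SE 0.137, adjusted p = 2.98e-06).

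Snrpn, the main gene of the second domain, was already well expressed in control cells, at 32.3 and 34.3 TPM. It rose with every loss of G9a, to 91.3 and 94 TPM in G9a-KO (log2 change 1.45, SE 0.0955, adjusted p = 2.78e-08) and 109.7 and 103 in G9a;Setdb1-DKO (log2 change 1.65, SE 0.0955, adjusted p = 2.98e-09). G9a;Suv39h1/2-TKO had 80.0 and 67.8 TPM and QKO 78.3 and 72 TPM, with log2 changes of 1.12 and 1.15 (adjusted p = 6.36e-07 and 1.54e-07). The groups without and with G9a did not overlap, since the highest library with G9a was at 39.1 TPM. Setdb1-KO (39.1 and 39.1 TPM), Suv39h1/2-DKO (35 and 34.2) and Suv39h1/2;Setdb1-TKO (33.1 and 32.6) were not called, with log2 changes of 0.22, 0.05 and -0.02. Snurf lies wholly within Snrpn exons, so how reads were divided between them is uncertain.

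Ndn, a regulator of cell growth known mostly from neurons, rose with the loss of either G9a or Setdb1. It was at 5.5 and 4.3 TPM in control, 11.6 and 11.2 in Setdb1-KO (log2 change 1.08, SE 0.186, adjusted p = 0.000504) and 13.7 and 12.6 in G9a-KO (log2 change 1.27, SE 0.186, adjusted p = 9.05e-05). G9a;Setdb1-DKO held 20.3 and 16.9 TPM (log2 change 1.74, SE 0.186, adjusted p = 2.48e-06) and QKO 14.8 and 12.3 TPM (log2 change 1.3, SE 0.186, adjusted p = 3.82e-05). In Suv39h1/2;Setdb1-TKO (9.57 and 9.78 TPM) and G9a;Suv39h1/2-TKO (11.2 and 8.56 TPM) the values were clear of control with log2 changes of 0.86 and 0.88, under the size threshold. The call in Setdb1-KO ended without control replicate 2 (log2 change 0.93). Of the 7 genotypes, Suv39h1/2-DKO alone, at 2.48 and 4.31 TPM, overlapped control.

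Magel2, a partner of ubiquitin ligases, lies next to Ndn and showed its highest levels where G9a and Setdb1 were both lost. It was at 0.0823 and 0.119 TPM in control, 0.379 and 0.318 in G9a-KO and 0.513 and 0.633 in Setdb1-KO, with neither called (log2 changes 0.29 and 0.51). In G9a;Setdb1-DKO it reached 2.17 and 2.86 TPM (log2 change 1.67, SE 0.136, adjusted p = 1.37e-07) and in QKO 2.35 and 1.8 TPM (log2 change 1.48, SE 0.136, adjusted p = 4.73e-07). G9a;Suv39h1/2-TKO was at 0.28 and 0.185 TPM, and Dux-KO:QKO at 0.938 and 1.2 TPM, so the 4 libraries of G9a;Setdb1-DKO and QKO were above the other 14. With a pseudocount of 0.1 TPM the log2 change was 1.75 (SE 0.304, adjusted p = 0.000599) in Setdb1-KO and 1.16 (SE 0.304, adjusted p = 0.00794) in G9a-KO, both then called.

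**Figure D2:**
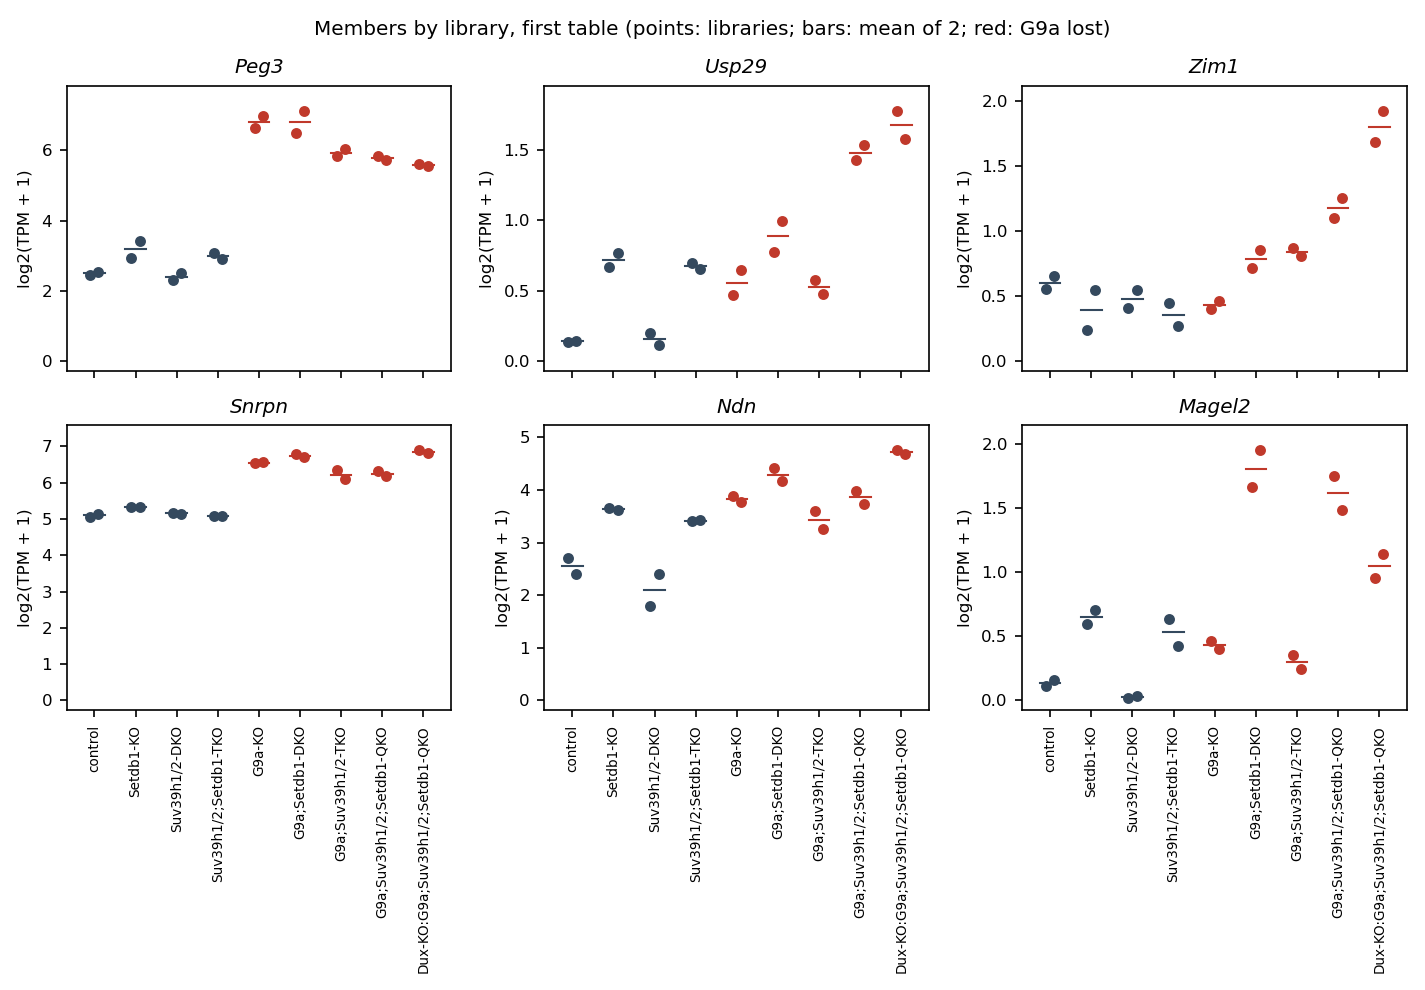
Level of each of the 6 genes as log2(TPM + 1) on the y axis in each library of the first table, by genotype on the x axis (points: libraries, bars: mean of 2, red: G9a lost). Peg3 and Snrpn separate by G9a alone, Ndn is also called higher in Setdb1-KO, and Magel2 is highest in G9a;Setdb1-DKO and QKO.

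Over the 7 genotypes without the Dux deletion, 15 of 42 gene and genotype pairs were called, all higher. By genotype this was 1 of 6 genes in Setdb1-KO (background: 4.12% of all tested genes called higher), 0 in Suv39h1/2-DKO (0.137%), 3 in G9a-KO (5.52%) and 0 in Suv39h1/2;Setdb1-TKO (4.74%). It was 4 in G9a;Setdb1-DKO (9.58%), 2 in G9a;Suv39h1/2-TKO (4.65%) and 5 in QKO (10.1%). In the 2 groups with no call, limma gave an unadjusted p under 0.05 for 1 gene in Suv39h1/2-DKO (Ndn, lower) and for 4 in Suv39h1/2;Setdb1-TKO, all higher. Of the latter, 3 also had an adjusted p under 0.05. The median log2 change of the 6 genes was 0.84 in G9a-KO and 1.32 in QKO, beside -0.0053 and -0.05 over all tested genes. Since Usp29, Zim1 and Magel2 passed the filter through their high groups, these counts are a description only. All comparisons with control share the same 2 control libraries.

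The loss of each enzyme can be compared in backgrounds that already lack others. Loss of G9a or Suv39h1/2 always comes with a change of the tag that may name the cell line. Backgrounds that differ only in Setdb1 share that tag, so steps in them are not independent. Loss of G9a raised Peg3 in each: from 6.69 and 9.72 TPM to the level of G9a;Setdb1-DKO (log2 change 3.63), from 3.91 and 4.68 in Suv39h1/2-DKO (3.54) and from 7.46 and 6.57 in Suv39h1/2;Setdb1-TKO (2.78), with SE 0.194 and adjusted p of at most 5.06e-08. Snrpn rose in the same 3 steps, by 1.42, 1.07 and 1.17. On this scale, Magel2 was called on loss of G9a in Setdb1-KO (1.15) and in Suv39h1/2;Setdb1-TKO (1.08), where Setdb1 was already lost, and was not called in Suv39h1/2-DKO (log2 change 0.27, SE 0.136, adjusted p = 0.17). It was called there too with a pseudocount of 0.1 TPM, at 1.44 (SE 0.304, adjusted p = 0.00267). Ndn was called in Suv39h1/2-DKO (1.33) and not in the Setdb1-lacking backgrounds (0.65 and 0.44). Some of these calls lie close to the size threshold: Snrpn in Suv39h1/2-DKO was at 0.95 without replicate 1 of G9a;Suv39h1/2-TKO, and Magel2 in Suv39h1/2;Setdb1-TKO at 0.98 without replicate 2 of that group and at 0.95 without replicate 1 of QKO. Each step thus had 3 of 6 genes higher, beside 6.35%, 4.41% and 5.72% of all genes.

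Loss of Setdb1 where G9a was already lost left Peg3 at overlapping or near levels, with log2 changes of 0.004 (SE 0.194, adjusted p = 0.992) in G9a-KO and -0.16 in G9a;Suv39h1/2-TKO. Magel2 was the gene called in both: log2 change 1.38, SE 0.136, adjusted p = 3.64e-06 in G9a-KO, and log2 change 1.31, SE 0.136, adjusted p = 2.96e-06 in G9a;Suv39h1/2-TKO. Usp29 went from 0.489 and 0.393 TPM to 1.69 and 1.9 in the second of these, just under the size threshold (log2 change 0.95, SE 0.123, adjusted p = 2.55e-05). In Suv39h1/2-DKO, with G9a intact, Ndn was the only one of the 6 genes past the size threshold on loss of Setdb1 (log2 change 1.31, SE 0.186, adjusted p = 9.36e-05). With a pseudocount of 0.1 TPM, Usp29 at 1.71 (SE 0.28, adjusted p = 0.000358) and Magel2 at 2.16 (SE 0.304, adjusted p = 0.0001) were called as well. On log2(TPM + 1) these are 1 of 6 genes in each step, beside 4.62%, 6.45% and 4.65% of all genes in that order.

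On loss of Suv39h1/2 none of the 6 genes was called higher in Setdb1-KO, G9a-KO or G9a;Setdb1-DKO, where 0.0361%, 0.505% and 1.46% of all genes were called higher. At an unadjusted p under 0.05, limma had 0, 1 and 2 of the 6 genes higher. Peg3 fell on this loss in G9a;Setdb1-DKO (log2 change -1.03, SE 0.194, adjusted p = 0.00176), the only lower call among the 6 genes, beside 1.79% of all genes called lower. Leaving out the second G9a;Setdb1-DKO or the second QKO library ended that call. In G9a-KO the difference was of like size but under the threshold (log2 change -0.87, SE 0.194, adjusted p = 0.00924). Usp29, on the other side of the shared start, moved the other way in G9a;Setdb1-DKO, from 0.715 and 0.996 TPM to 1.69 and 1.9, also under the size threshold (log2 change 0.59, SE 0.123, adjusted p = 0.00342). It was just past it with a pseudocount of 0.1 TPM, at 1.0 (SE 0.28, adjusted p = 0.0233).

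**Figure D3:**
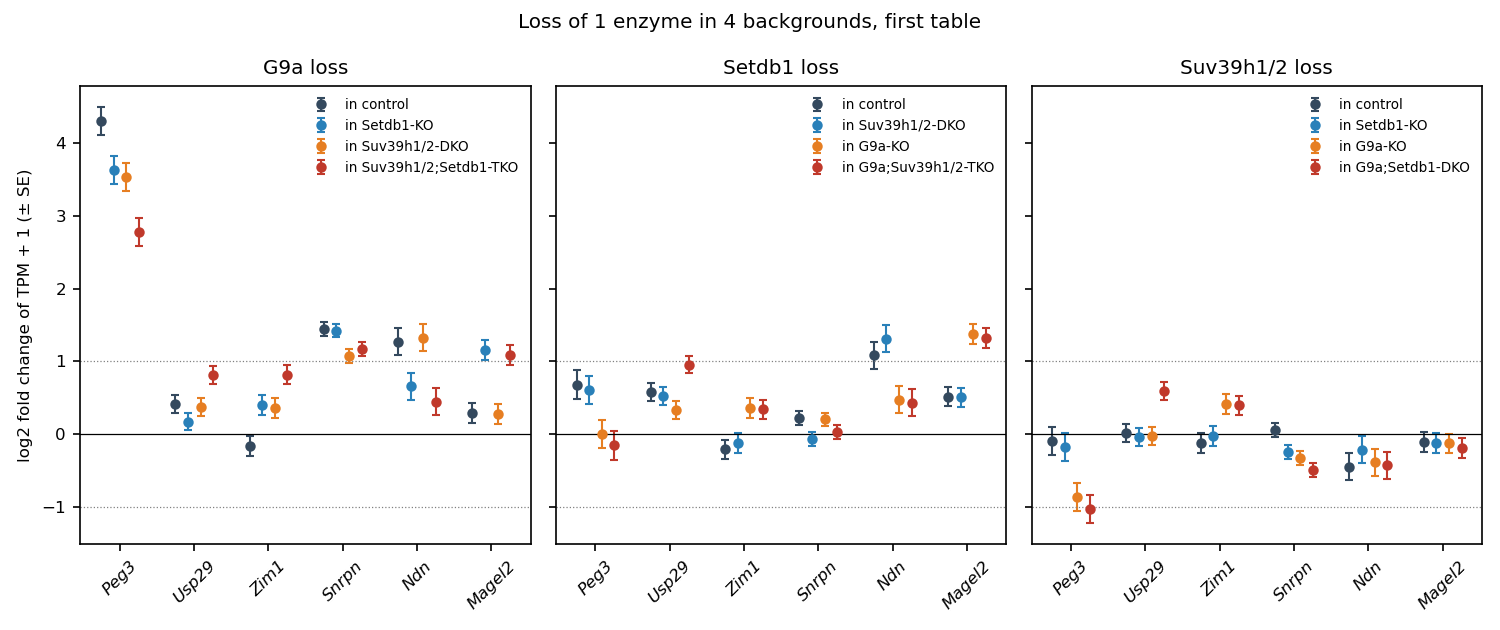
Log2 fold change of TPM + 1 with its SE (y axis) for each of the 6 genes (x axis) on loss of G9a, Setdb1 or Suv39h1/2, in 4 backgrounds each, first table (dotted lines: the size threshold of 1). Peg3 and Snrpn lie above 1 in all 4 backgrounds on loss of G9a, on this scale Magel2 lies above 1 on loss of Setdb1 where G9a was already lost (with a pseudocount of 0.1 TPM it does so in all 4 backgrounds), and Peg3 lies below 0 on loss of Suv39h1/2 in all 4.

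Whether a loss differs between backgrounds was tested directly by interaction terms. The change of Magel2 on loss of G9a was larger in Setdb1-KO than in control by 0.86 on the log2 scale (adjusted p = 0.0105, the only one of the 6 genes under 0.05, beside 10.1% of all genes). Setdb1 loss differed between G9a;Suv39h1/2-TKO and Suv39h1/2-DKO for Magel2, by 0.81, and for Ndn, by -0.88 (adjusted p = 0.0117 and 0.037, beside 14.4% of all genes). Suv39h1/2 loss differed between G9a;Setdb1-DKO and Setdb1-KO for Usp29 (0.63, adjusted p = 0.0363, beside 8.33% of all genes). For G9a loss in Suv39h1/2-DKO against control and for Suv39h1/2 loss in Setdb1-KO against control, none of the 6 genes had an adjusted p under 0.05 (4.43% and 0.195% of all genes), while limma's unadjusted p was under 0.05 for 3 and 1. The value for Peg3 in the first of these was -0.77 (adjusted p = 0.148). With a pseudocount of 0.1 TPM, neither difference of Magel2 passed: they were 0.79 (SE 0.431, adjusted p = 0.295) and 0.56 (SE 0.431, adjusted p = 0.447). Magel2 and Usp29 entered the test through their high groups, which are part of these terms, so their terms are a description only. For Magel2, 13 of its 18 libraries lie under 1 TPM, where log2(TPM + 1) compresses changes. With that pseudocount Usp29 had 1.09 (SE 0.397, adjusted p = 0.123), not passing either, and Ndn -1.07 (SE 0.306, adjusted p = 0.035), still under 0.05. Without the filter on low values Ndn was above it (adjusted p = 0.0628). With 1 of the 8 libraries of each term left out, the difference of Ndn stayed under 0.05 in 3 of 8 fits and that of Usp29 in 2 of 8.

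Removal of Dux from the QKO gave no call among the 6 genes, beside 4.71% of all genes called higher. For 4 of them limma gave an adjusted p under 0.05 with a change under the size threshold. The pseudocount of 0.1 TPM, the analysis without a filter and the scaling by median ratios also gave 0. Ndn was at 25.9 and 24.7 TPM in Dux-KO:QKO, above both QKO libraries (log2 change 0.86, SE 0.186, adjusted p = 0.00219), and Snrpn at 118 and 112 TPM (log2 change 0.61, SE 0.0955, adjusted p = 0.000227). Zim1 differed by 0.63 and Magel2 by -0.57, with the median of all tested genes at 0.22. Against control, 5 of 6 genes were called higher in Dux-KO:QKO on log2(TPM + 1), Magel2 being the exception (16.8% of all genes). With a pseudocount of 0.1 TPM Magel2 was called higher as well, at 2.54 (SE 0.304, adjusted p = 6.17e-06). Summed markers of some other cell types moved with this comparison: those of primitive endoderm were at 635 and 476 TPM in QKO and 1544 and 1468 in Dux-KO:QKO. Those of trophoblast were at 70.9 and 60.2 and 153 and 154 TPM, those of fibroblasts at 10.5 and 7.53 and 20.4 and 15.8, and those of neural cells overlapped, at 75.2 and 61.9 and 72.9 and 66.5. Their part in the result was not tested. Peg3 was at 47.7 and 46 TPM in Dux-KO:QKO and Usp29 at 2.43 and 1.98 TPM.

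The neighbours of the 6 genes were read from a list of both domains and their flanks. Snhg14 rose with Snrpn in all 4 G9a-lacking genotypes, from 5.77 and 6.85 TPM in control to 23.5 and 30.4 in G9a-KO (log2 change 1.93, SE 0.319, adjusted p = 0.000259) and 24.2 and 32.4 in QKO (log2 change 1.99, SE 0.319, adjusted p = 0.000111). Ube3a, a ubiquitin ligase gene that Snhg14 overlaps antisense, was at 29.6 and 34.8 TPM in control and 39.1 and 50.2 in G9a-KO and was not called in any genotype. Of the other genes of the Snrpn domain, Mkrn3 and Atp10a were not called, Ipw was not tested, and Snurf was called higher in G9a;Setdb1-DKO (5.85 and 12.7 TPM against 4.41 and 2.32 in control, log2 change 1.19, SE 0.417, adjusted p = 0.029). Atp10a was nevertheless at 0.652 TPM or more in every library without G9a and at 0.501 TPM or less in every library with it. At such levels the scale of log2(TPM + 1) understates changes. Peg12, next to Mkrn3, was highest in G9a;Suv39h1/2-TKO (2.24 and 1.88 TPM against 1.33 and 1.15 in control) and not called against control. In the Peg3 domain, Zim2 was listed at 0 in both control libraries and at 1.31 and 1.42 TPM in G9a;Setdb1-DKO, where it was called higher (adjusted p = 1.14e-06). From there it fell to 0.283 and 0 TPM in QKO on loss of Suv39h1/2 (log2 change -1.06, SE 0.123, adjusted p = 3.75e-05). Zim2 reached 1 TPM only in the G9a;Setdb1-DKO libraries and was tested only through them, so both calls are a description only. Zim3 and Peg3os were too low to be tested, and Zfp264 and Apeg3 were not analysed here. The flanking genes Herc2, Nipa1, Nipa2, Tubgcp5 and Cyfip1 were not called in any genotype against control.

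The second table repeats the genotypes in the Tet-on-Dux lines. Without doxycycline, Peg3 was again called higher in the 4 lines that lack G9a and in none of the other 3. Control libraries were at 4.2 and 4.39 TPM, and G9a-KO libraries at 23 and 19.2 TPM (log2 change 2.05, SE 0.384, adjusted p = 0.000651). G9a;Setdb1-DKO had 14 and 30.0 TPM (log2 change 2.03, SE 0.384, adjusted p = 0.000386), G9a;Suv39h1/2-TKO 45.3 and 60.6 TPM and QKO 30.0 and 53 TPM, the last 2 with log2 changes of 3.33 and 2.95 (adjusted p = 4.05e-06 and 6.26e-06). In these lines Peg3 therefore had higher, not lower, mean values where Suv39h1/2 was lost on top of G9a, but the step was not called in G9a-KO (log2 change 1.28, SE 0.384, adjusted p = 0.0615) or in G9a;Setdb1-DKO (log2 change 0.92, SE 0.384, adjusted p = 0.172). The 2 tables were normalised apart, so this difference between them was not tested.

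Usp29 was again highest in QKO, at 1.5 and 1.81 TPM against 0.267 and 0.185 in control (log2 change 1.11, SE 0.143, adjusted p = 5.54e-06), the only genotype where it was called. In G9a-KO it was at 0.183 and 0.199 TPM, overlapping control, although Peg3 had risen there. G9a;Suv39h1/2-TKO held 0.954 and 1.09 TPM (log2 change 0.72, SE 0.143, adjusted p = 0.00118). Ndn was called higher in G9a;Setdb1-DKO, at 23.5 and 21.6 TPM against 9.67 and 8.1 in control (log2 change 1.26, SE 0.187, adjusted p = 3.08e-05). In G9a-KO, at 17.4 and 20.1 TPM, its log2 change was just under the threshold at 0.999 (adjusted p = 0.000676). Unlike in the first table, the Setdb1-KO line (10.7 and 11.4 TPM) was not called (log2 change 0.29, SE 0.187, adjusted p = 0.513), and the Suv39h1/2-DKO line was lower at 4.64 and 3.5 TPM, just under the size threshold (log2 change -0.97, SE 0.187, adjusted p = 0.00325). Magel2 stayed under 1 TPM in every line without doxycycline except for 1 of the G9a;Setdb1-DKO libraries (0.635 and 1.31 TPM), and was not called.

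In all, 6 of the 35 pairs of the 5 tested genes and 7 lines were called, all higher. These were 0 genes in Setdb1-KO (1.67% of all genes), Suv39h1/2-DKO (0.239%) and Suv39h1/2;Setdb1-TKO (1.15%), 1 in G9a-KO (3.07%), 2 in G9a;Setdb1-DKO (7.35%), 1 in G9a;Suv39h1/2-TKO (2.99%) and 2 in QKO (6.59%). In the 3 lines with none, limma's unadjusted p was under 0.05 for 1, 1 and 2 genes, and its adjusted p for 0, 1 and 1. On loss of G9a in the other backgrounds, Peg3 rose by 2.25 in Setdb1-KO (the only call, with 4.55% of all genes), and both Peg3 and Ndn rose in Suv39h1/2-DKO (3.4 and 1.85, with 3.97%) and in Suv39h1/2;Setdb1-TKO (3.43 and 1.51, with 5.62%). Peg12 was at 2.68 and 2.64 TPM in G9a;Suv39h1/2-TKO and 2.55 and 2.43 in QKO against 0.909 and 0.659 in control, and was called higher in the first (1.04, adjusted p = 2.42e-05).

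**Figure D4:**
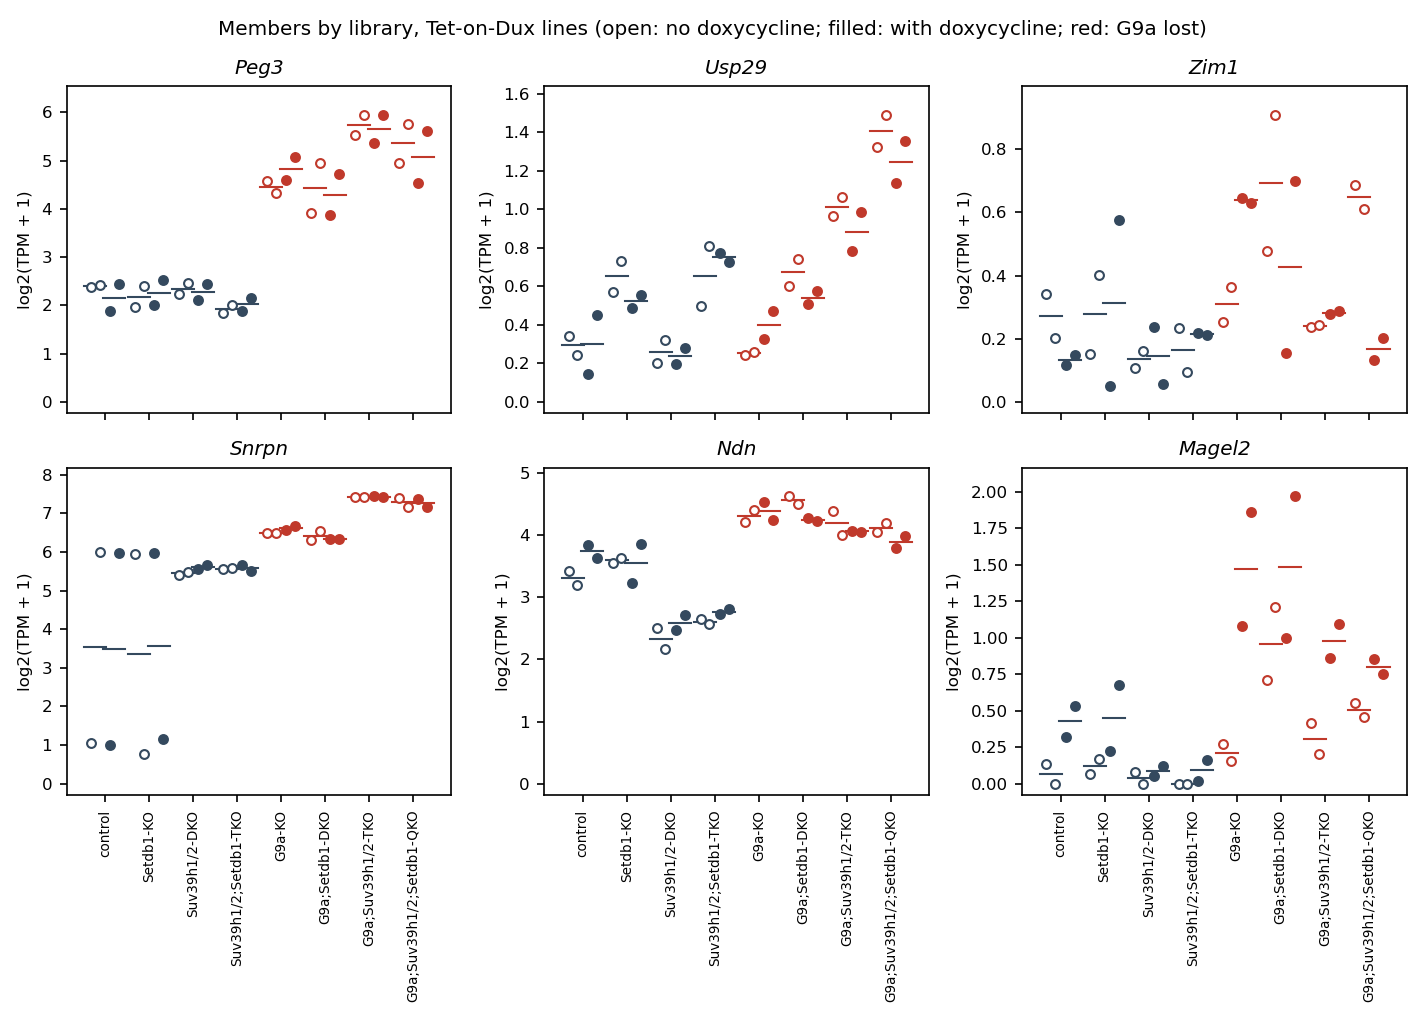
Level of each of the 6 genes as log2(TPM + 1) on the y axis in each library of the Tet-on-Dux lines, by genotype on the x axis (open: no doxycycline, filled: with doxycycline, bars: mean of 2, red: G9a lost). Peg3 is at 13.6 TPM or more in all libraries without G9a and under 5 TPM in all with it, and the 2 replicates of Snrpn lie far apart in the control and Setdb1-KO lines.

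Snrpn could not be read as a group mean in the second table, since 4 libraries had almost none of it. In the control line without doxycycline the replicates were at 1.06 and 63.4 TPM, and with doxycycline at 1.0 and 61.2 TPM. In the Setdb1-KO line they were at 60.4 and 0.69 TPM without and 61.2 and 1.24 TPM with doxycycline. The low library was thus replicate 1 in the control line and replicate 2 in the Setdb1-KO line, with and without doxycycline alike. Control and Setdb1-KO share the title tag that may name the cell line. Replicate 2 minus replicate 1, Snrpn differed on the log2 scale by 4.96 and 4.96 in the control groups and by -5.18 and -4.8 in the Setdb1-KO groups, which ranked it 1, 2, 3 and 2 by size among 13817 genes. In the other 12 groups the replicates lay close together. They were at 41.5 and 43.5 TPM in Suv39h1/2-DKO, 45.8 and 46.7 in Suv39h1/2;Setdb1-TKO, 88.5 and 88.1 in G9a-KO, 77.6 and 92.5 in G9a;Setdb1-DKO, 171 and 171 in G9a;Suv39h1/2-TKO and 169 and 143 in QKO without doxycycline. All 16 libraries that lack G9a were above the highest of those that have it, 63.4 TPM.

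The split followed the genes at the Snrpn start and not the rest of the domain. Snurf was at 0.0396 and 1.62 TPM in the control line and 2.71 and 0.0274 in the Setdb1-KO line without doxycycline. With doxycycline it was at 0.022 and 7.46 TPM in the control line and 2.1 and 0.00177 in the Setdb1-KO line. Snhg14 was low in the same libraries, at 0.128 and 1.9 TPM in control and 1.04 and 0.107 in Setdb1-KO without doxycycline. Ndn, Ube3a and Mkrn3 did not follow it. Without doxycycline, Ndn was at 9.67 and 8.1 TPM in control and 10.7 and 11.4 in Setdb1-KO. Ube3a was at 22.4 and 32.6 TPM in control and 20.8 and 24.6 in Setdb1-KO, higher in replicate 2 of both. Mkrn3, a zinc-finger gene beyond Magel2, was at 3.59 and 2.9 TPM and 3.38 and 3.08 TPM. Of all 13817 genes, 3 differed by more than 1 on the log2 scale in the same direction as Snrpn in all 4 groups: Snrpn itself, Snurf and Rian, a maternally expressed RNA of another imprinted domain, and 2 did so in the opposite direction.

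Other values moved with part of the split. Of the 4 libraries low in Snrpn, 3 are among the 6 with high small nucleolar RNA host gene levels. The exception is replicate 1 of the control line with doxycycline, whose host gene level was 2.77 beside 2.74 in replicate 2. Zfp57 was at 249 and 74.7 TPM in control and 111 and 332 in Setdb1-KO without doxycycline, and at 75.3 and 70.2 in control with it. The part of host gene levels or of Zfp57 in the split was not tested. In the first table, which was normalised apart, all 18 libraries have high host gene levels (4.38 to 4.86), and none is low in Snrpn.

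**Figure D5:**
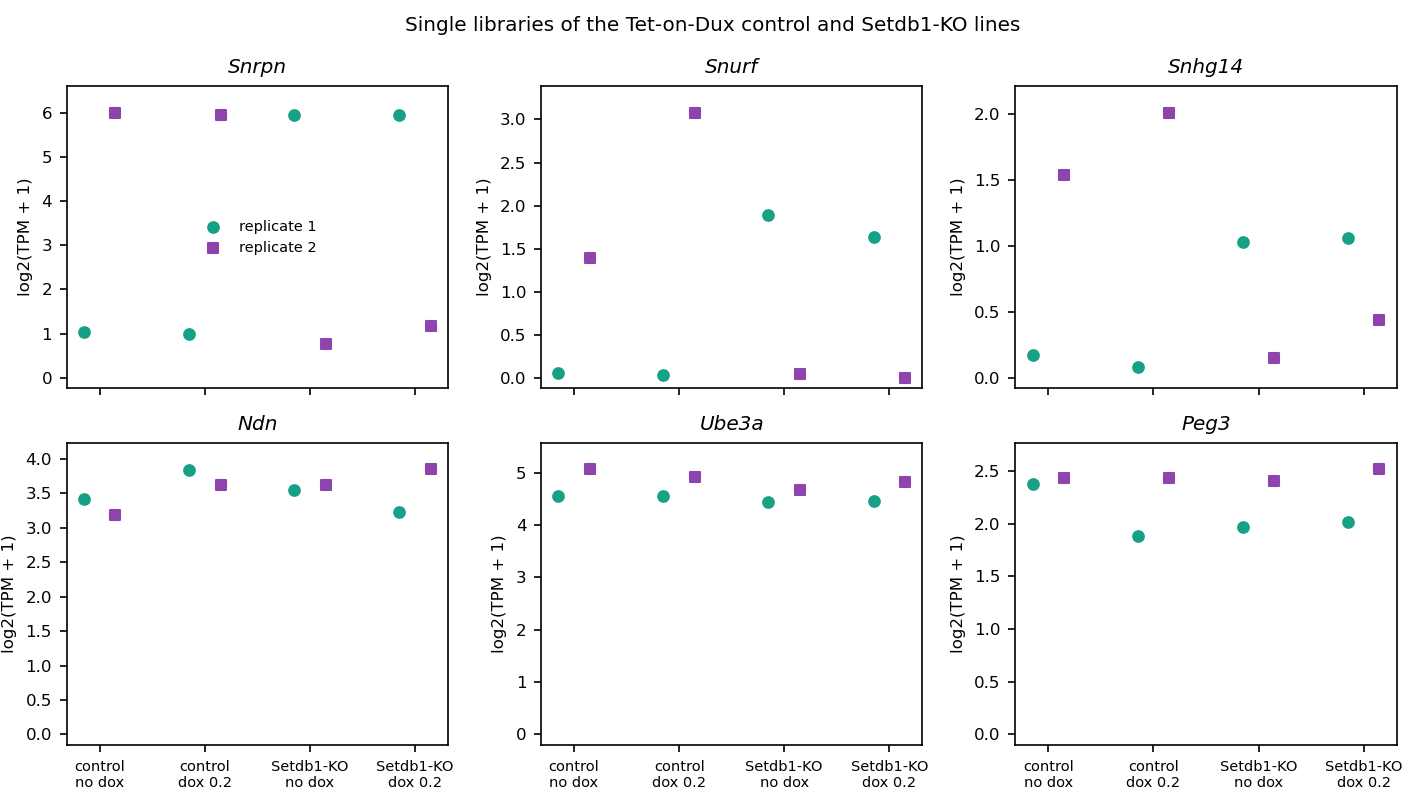
Levels as log2(TPM + 1) on the y axis of Snrpn, Snurf, Snhg14, Ndn, Ube3a and Peg3 in the 8 single libraries of the Tet-on-Dux control and Setdb1-KO lines, by line and doxycycline label on the x axis (circles: replicate 1, squares: replicate 2). Snrpn lies near 6 in 4 libraries and near 1 in the other 4, with Snurf and Snhg14 low in the same 4, while Ndn, Ube3a and Peg3 do not split that way.

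No comparison of Snrpn with the control line was called, and the split enters its SE, which was 1.59 for every comparison of groups. G9a-KO against control gave 2.95 (SE 1.59, adjusted p = 0.196). Without control replicate 1 it was 0.47 (SE 1.73, adjusted p = 0.913) and without control replicate 2 5.44 (SE 1.73, adjusted p = 0.0355). Either value thus rests on which of the 2 control libraries is kept, and in the latter case Snrpn is called higher in all 4 G9a-lacking lines. Without the 6 libraries of high host gene level the value was 0.47 (SE 1.15, adjusted p = 0.8). Between lines that do not split, the G9a;Suv39h1/2-TKO libraries (171 and 171 TPM) lay clear of the Suv39h1/2-DKO libraries (41.5 and 43.5 TPM), with a log2 change of 1.98 at the same SE (adjusted p = 0.492). Snurf, split in the same way, was called higher than control in G9a-KO (log2 change 2.89, SE 0.822, adjusted p = 0.0151), G9a;Suv39h1/2-TKO (2.43) and QKO (2.54). These calls rest on the same 2 control libraries: without control replicate 1 none of the 3 was called, with G9a-KO at 2.22 (SE 0.998, adjusted p = 0.166), and without control replicate 2 G9a-KO was at 3.56 (SE 0.998, adjusted p = 0.0189).

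Doxycycline, the inducer of Tet-on constructs, gave a call for 1 of the 5 tested genes in 1 line. Magel2 was at 0.205 and 0.113 TPM in G9a-KO without doxycycline and 1.11 and 2.64 with it (log2 change 1.26, SE 0.258, adjusted p = 0.0125), beside 0.941% of all genes called higher. The call ended without the high host gene libraries, among them the one at 2.64 TPM, where the log2 change was 0.87 (adjusted p = 0.00876), and on leaving out either library without doxycycline (adjusted p = 0.0902 and 0.153) or that same library alone (adjusted p = 0.323). In G9a;Suv39h1/2-TKO Magel2 was at 0.332 and 0.15 TPM without and 0.816 and 1.14 with doxycycline, clear of each other but not called (log2 change 0.67, SE 0.258, adjusted p = 0.41). Of the other lines, control went from 0.0988 and 0 to 0.25 and 0.446 TPM and G9a;Setdb1-DKO from 0.635 and 1.31 to 0.994 and 2.91 TPM. Magel2 thus had a higher mean with doxycycline in all 8 genotypes, at levels mostly under 1 TPM.

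None of the 5 tested genes was called in the other 7 lines: control (0.181% of all genes called higher), Setdb1-KO (0.166%), Suv39h1/2-DKO (0.427%), Suv39h1/2;Setdb1-TKO (0.246%), G9a;Setdb1-DKO (0.753%), G9a;Suv39h1/2-TKO (0.456%) and QKO (0.384%). In these lines limma's unadjusted p was under 0.05 for 1 gene in control and 1 in G9a;Suv39h1/2-TKO. Peg3 was at 40.1 and 60.8 TPM in G9a;Suv39h1/2-TKO and 22 and 47.6 in QKO with doxycycline, overlapping the libraries without it. For Snrpn, the difference with doxycycline within each replicate number was -0.04 and -0.05 in the control line and 0.02 and 0.41 in the Setdb1-KO line on the log2 scale. The label of doxycycline differs between lines, so its effect was not compared across them except in control and Setdb1-KO, where the interaction had an adjusted p of 1 for all 5 genes.

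The factors that act on imprints were read from a list of 19 genes. In the first table's G9a-KO, Dppa3 and Dnmt3l rose, and Ehmt2, the targeted gene, fell. Dppa3, a maternal factor that shields methylation in the zygote, was at 4.0 and 5.41 TPM in control and 32.1 and 31.9 in G9a-KO (log2 change 2.54, SE 0.173, adjusted p = 3.88e-08). Dnmt3l, a cofactor of de novo DNA methylation, had log2 changes of 1.05 in G9a-KO and 1.18 in QKO. It was also called higher in Setdb1-KO (1.36), Suv39h1/2;Setdb1-TKO (1.54), G9a;Setdb1-DKO (1.03) and G9a;Suv39h1/2-TKO (2.07). Dppa3 was also called higher in G9a;Setdb1-DKO (2.62), G9a;Suv39h1/2-TKO (2.65) and QKO (2.31), and not in Setdb1-KO, Suv39h1/2-DKO or Suv39h1/2;Setdb1-TKO. Dnmt3b, also on the list, was just under the size threshold in G9a-KO (log2 change 0.98, SE 0.132, adjusted p = 4.02e-05) and was called higher in G9a;Suv39h1/2-TKO (1.07). In G9a-KO of the second table without doxycycline, Dppa3 (2.02) and Dnmt3b (1.34) were called higher and Dnmt3l was not (0.88). The part of Dppa3, Dnmt3l or Dnmt3b in the results was not tested. Zfp57 was at 375 and 365 TPM in control and 299 and 299.7 in G9a-KO, Trim28 at 903 and 881 and 852 and 838, and neither was called. In QKO Dppa3 and Dnmt3l rose, and Ehmt2 and Suv39h1, both targeted, fell.

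Of 32 other imprinted genes, 29 were tested in the first table. In G9a-KO, 10 were called higher and 1 lower, with a median log2 change of 0.63. In QKO, 9 were called higher and 3 lower (median 0.56), and in Setdb1-KO 2 higher and 1 lower (median 0.21). Of all tested genes, 5.52% were called higher in G9a-KO, 10.1% in QKO and 4.12% in Setdb1-KO. The shares of all genes called lower are not given here, so the lower counts are a description only. The 6 genes described here had medians of 0.84, 1.32 and 0.55 in the same comparisons, and all tested genes -0.0053, -0.05 and -0.12.

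Genes whose changes were most like those of each gene called in at least 1 of the 7 genotypes (all but Zim1) were found over the 8 non-control groups of the first table, as the root mean square difference of log2 fold changes among named genes with a mean of at least 5 TPM. For Peg3 these were Xlr4a (0.312), Xlr4c (0.420) and Mirg (0.432), of which the Xlr4 genes belong to an X-linked cluster with imprinted members and Mirg is a maternally expressed RNA. For Snrpn they included Trim13 (0.246) and Agpat4 (0.275), and for Ndn they were Ctgf (0.310), Msrb2 (0.315) and Rap2b (0.324). For Magel2 they were Lnpep (0.247), Malat1 (0.249) and Zfp873 (0.276), and for Usp29 Cald1 (0.104), Ell2 (0.106) and Zfp874a (0.123), both at low levels, where the scale keeps all differences small.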

How the data were processed

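Polyadenylated RNA of 50 libraries of mouse ES cells was sequenced by the authors. The deposited values are TPM per gene in 2 tables of 18 and 32 libraries, normalised apart. The submitters' processing notes name RSEM 1.3.1, STAR 2.7.10b, SAMtools 1.9, Bowtie2 2.3.4.1 and mm10, without the role of each. TPM holds no read depth, so precision rests on the 2 libraries per group.

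From these, log2(TPM + 1) was fitted with limma 3.58.1 (R 4.3.3, variance trend, all groups of a table together, 9 and 16 residual degrees of freedom). Genes needed 1 TPM in 2 libraries, and Benjamini-Hochberg adjustment ran over all genes so tested. Rows of the Dux transgene and a reporter were left out. The code was tested on simulated data. The 6 genes and all lists were chosen with earlier results of these data known. The named genes were the 6, the listed neighbours, the imprint factors called in G9a-KO or QKO, and for likeness the 3 genes of nearest change with a mean of 5 TPM or more, leaving out Gm and Rik names, and some of these are not reported here. The genes named for following the replicate split of Snrpn, and Zfp57, Trim28 and Dnmt3b, were named after their values were seen. Alternatives were another pseudocount, no filter, scaling by median ratios, a replicate term, each library left out and, in the second table, the libraries of high small nucleolar RNA host gene level left out or marked by a term.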

Additional observations from a re-analysis of the deposited data

Results flagged for a closer look

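In the first table, 4 changes differed between backgrounds by an interaction term of the limma fit with an adjusted p under 0.05 over all tested genes. The change of Magel2 on loss of G9a was 0.86 larger on the log2 scale in Setdb1-KO than in control cells (SE 0.192, adjusted p = 0.0105). Its change on loss of Setdb1 was 0.81 larger in G9a;Suv39h1/2-TKO than in Suv39h1/2-DKO (SE 0.192, adjusted p = 0.0117). The change of Ndn on the same loss of Setdb1 was smaller in G9a;Suv39h1/2-TKO than in Suv39h1/2-DKO, by -0.88 (SE 0.262, adjusted p = 0.0370). The change of Usp29 on loss of Suv39h1/2 was 0.63 larger in G9a;Setdb1-DKO than in Setdb1-KO (SE 0.173, adjusted p = 0.0363).

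The same 4 differences in the Tet-on-Dux lines without doxycycline had the same sign and did not pass the threshold. They were 0.69 (SE 0.364, adjusted p = 0.713) and 0.24 (SE 0.364, adjusted p = 1) for Magel2, -0.34 (SE 0.265, adjusted p = 1) for Ndn and 0.73 (SE 0.203, adjusted p = 0.121) for Usp29, in the order given above with both of Magel2 first. The 2 tables were normalised apart, and whether the differences themselves differ between tables was not tested. Magel2 and Usp29 lie mostly under 1 TPM, where the log2(TPM + 1) scale understates changes. With a pseudocount of 0.1 TPM their 3 differences in the first table did not pass the threshold. Both genes were tested there only because they reached 1 TPM in groups where they are high. These were QKO and Dux-KO:QKO for Usp29, and G9a;Setdb1-DKO, QKO and replicate 2 of Dux-KO:QKO for Magel2. Each of the 3 differences includes QKO or G9a;Setdb1-DKO as such a group, so they are a description only.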

How the results depend on the processing

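Of 45 single called changes, all 45 kept their direction and call with a pseudocount of 0.1 TPM, without the filter, with scaling by median ratios and with a replicate block, and none changed sign under any alternative run. With 1 library left out at a time, 171 refitted values kept the call and 9 lost it, those of Ndn, Snrpn, Peg3 and Magel2 given with their results. The calls of the 6 genes against control in the first table went from 15 to 24 with a pseudocount of 0.1 TPM, and those within backgrounds from 13 to 22. All calls gained in the first table were of Usp29, Zim1 or Magel2, whose levels lie mostly under 1 TPM. In the second table the calls against control went from 6 to 12. Leaving out 1 library gave 14 to 17 and 12 to 14 calls in the first table, and 6 to 11 in the second, with 11 when control replicate 2 without doxycycline, where Snrpn is present, was left out. The doxycycline count of 1 became 0 without the libraries of high small nucleolar RNA host gene level and ranged from 0 to 2 with 1 library left out. It was 2 without replicate 1 of G9a;Setdb1-DKO with doxycycline. Dux removal gave 0 calls throughout.

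The replicate block gave 15, 13, 0, 6 and 1 calls and changed none. Samples of the same number deviated together in part only (correlation -0.0585 to 0.622, median 0.268, in the first table and -0.647 to 0.748, median 0.124, in the second), so the numbers were not taken as pairs. Scaling by median ratios moved the median log2 change of all genes in Setdb1-KO from -0.12 to 0.01, and the share of calls that were higher from 65.6% to 78.4%. It moved that share in the second table from 15.3% to 37.6% in Suv39h1/2-DKO, from 38.5% to 53.4% in G9a-KO, from 33.0% to 50.5% in Suv39h1/2;Setdb1-TKO, from 45.2% to 56.2% in G9a;Suv39h1/2-TKO and from 47.0% to 57.2% in QKO. TPM holds no depth, so no limit of detection could be set for genes listed at 0.

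The 4 differences between backgrounds kept their sign throughout. With 1 library of the term left out, Magel2 ranged from 0.72 to 1.0 for loss of G9a, with an adjusted p under 0.05 in all 8 fits, and from 0.68 to 0.94 for loss of Setdb1, above 0.05 without replicate 2 of Suv39h1/2;Setdb1-TKO (0.0580). Ndn ranged from -1.19 to -0.58 and was above 0.05 without replicate 1 of Suv39h1/2-DKO or of G9a;Suv39h1/2-TKO, either replicate of Suv39h1/2;Setdb1-TKO, or replicate 2 of QKO. Usp29 ranged from 0.53 to 0.74 and was under 0.05 only without replicate 2 of G9a;Setdb1-DKO or replicate 1 of QKO.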

Other observations

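Among 28 tested imprinted genes outside both domains, Rian was the only one that followed the replicate split of Snrpn by more than 1 on the log2 scale in all 4 groups of the Tet-on-Dux control and Setdb1-KO lines. It was at 0.542 and 8.68 TPM in control without doxycycline and at 0.0992 and 8.52 with it. In Setdb1-KO it was at 12.4 and 1.06 TPM without doxycycline and at 12.8 and 1.55 with it. The genes 1810032O08Rik and Gm4340 were the 2 that differed the opposite way in all 4 groups. All 3 were singled out after their values were seen.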
